A study of Mus musculus with 15 samples.

Results

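The integrins and laminins of mouse heart were followed as a group of 36 genes out of 17447 in the deposited count table. Symbols of integrin alpha and beta chains and of laminin alpha, beta and gamma chains were taken by name, without pseudogenes and without regard to its values. This gave 18 integrin alpha, 8 integrin beta, 5 laminin alpha, 3 laminin beta and 2 laminin gamma chains described here. Of these 36 genes, 33 had at least 10 counts in at least 3 libraries, and the same 33 entered the tests. Itgae, Itgad and Lama1 did not, with at most 7, 5 and 2 counts in any library.

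Laminins are heterotrimers of an alpha, a beta and a gamma chain that form the sheet of the basement membrane around cardiomyocytes, endothelium and Schwann cells. Integrins are receptors made of an alpha and a beta chain, which bind laminin, collagen, fibronectin or counter-receptors on other cells and connect them to the actin cytoskeleton. In cardiomyocytes the alpha chain Itga7 pairs with the beta chain Itgb1 as a laminin receptor, and Lama2 is the laminin alpha chain that dystroglycan also binds.

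RNA from the hearts of 15 male C57BL/6J mice was sequenced 18 weeks after surgery, with 3 mice in each of 5 groups. An age of 6 to 8 weeks is stated for the mice with no stage named, and cannot be the age of the hearts sequenced. Wild-type mice had a sham operation (WTSHAM), or chronic kidney disease (CKD) made by removing most of the kidney mass and then, in week 2, an empty vector (WTCKD) or the virus AAV9-cTnT-RNLS (WTCKD + RNLS). Mice of genotype rnls-/-, made with a nuclease aimed at the gene of renalase (RNLS), also had CKD and were given vector (KOCKD) or AAV9-cTnT-RNLS (KOCKD + RNLS). The virus expresses RNLS from the cardiac troponin T promoter, which the study describes as cardiomyocyte-specific. Which cells expressed the transgene was not checked here. All 4 CKD groups received vector or virus, and no sham-operated knockout heart was sequenced. These comparisons ask what CKD and cardiac RNLS do to the heart, with and without the endogenous gene.

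The libraries held 10480788 to 13424078 counted reads, of which the 36 genes took 0.200% to 0.305%. The summed level of 8 cardiomyocyte markers was at 87329 to 119097 CPM, counts scaled to a common library total, in the 15 libraries, and none of the 8 was at 0 in any group. Summed atrial markers ranged from 98.2 to 2661 CPM, and WTSHAM 3, WTCKD 1, WTCKD 2 and KOCKD 3 each exceeded 1000 CPM. Rnls is not among the genes analysed here, so the genotype was not checked. The column names of the KOCKD + RNLS libraries share a prefix with WTSHAM 1 and WTCKD + RNLS 3 and, apart from case, with the WTCKD libraries, but not with KOCKD, and whether labels were exchanged was not tested. In whole heart, fewer cells of a type and less RNA per cell cannot be told apart. CPM below are on library sizes scaled by edgeR's TMM method and compare a gene between hearts, whereas FPKM, which also divides by gene length, compares genes.

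Itgb1 was the integrin chain with the highest level and Lamb2 the laminin chain with the highest level in these hearts. By mean FPKM over the 15 libraries, Itgb1 stood at 106 and Itgb5, a chain of vitronectin receptors, at 36.5. Among alpha chains, Itga7 was at 31.5 FPKM, ahead of the fibronectin receptor chain Itga5 at 15.2 and the laminin receptor chain Itga6 at 13.7. The ranges of Itga7 (27.5 to 38.1 FPKM) and Itga5 (13 to 17.3) did not overlap over the 15 hearts, while those of Itga5, Itga6 (9.46 to 19.1) and Itga9 (7.23 to 16.6) did. The platelet, leukocyte and epithelial alpha chains lay far lower, with Itga2b, Itgal, Itgax, Itga2 and Itga4 each under 1 FPKM on average.

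**Figure D1:**
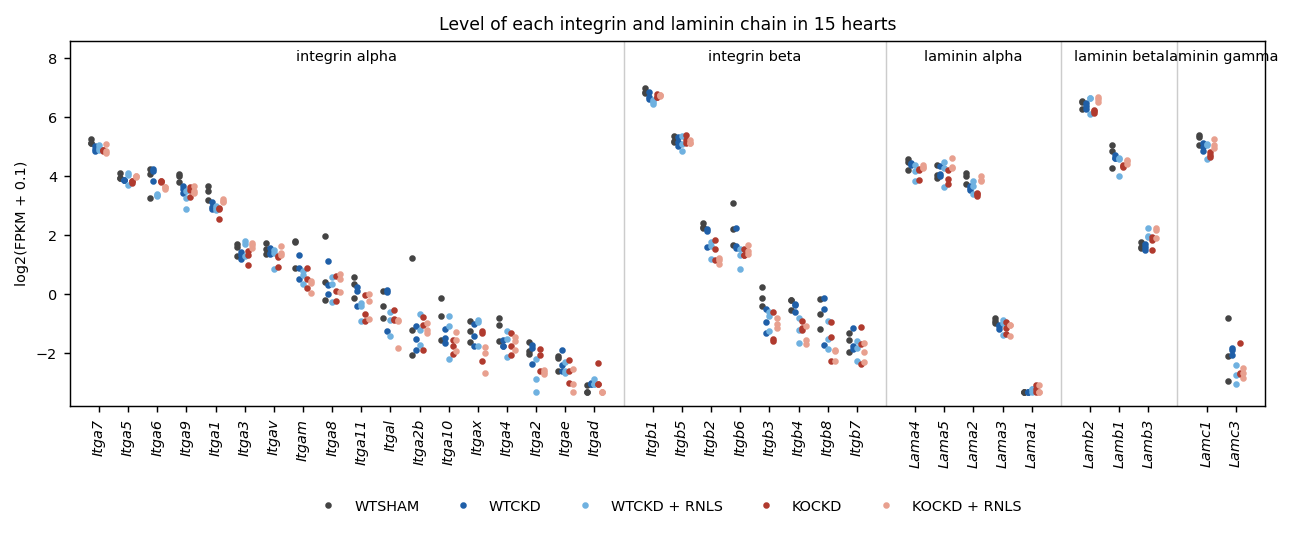
Each point is the level of a chain in one heart, as log2 of FPKM after adding a pseudocount of 0.1, with the 36 chains on the horizontal axis grouped by class and ordered by mean FPKM, and colours for the 5 groups of 3 mice. Itgb1 and Lamb2 sit at the top of their classes, at mean FPKM of 106 and 86.6, and Lama1 lies at the floor in all groups.

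Laminin beta chains were dominated by a single gene in these hearts. Lamb2, the beta chain of adult heart laminins, took 71.7% to 80.1% of the laminin beta FPKM over the 15 libraries, and Lamb1, the embryonic-type beta chain, 17.0% to 25.7%. Lamc1, the gamma chain of most laminins, stood at 32.3 FPKM. The alpha chains were more even: Lama4, of endothelial laminin, took 32.3% to 42.9%, Lama5 28.7% to 41.9% and Lama2 22.2% to 28.4%. Lama3 and Lamb3, chains of an epithelial laminin, were at 0.376 and 3.52 FPKM.

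**Figure D2:**
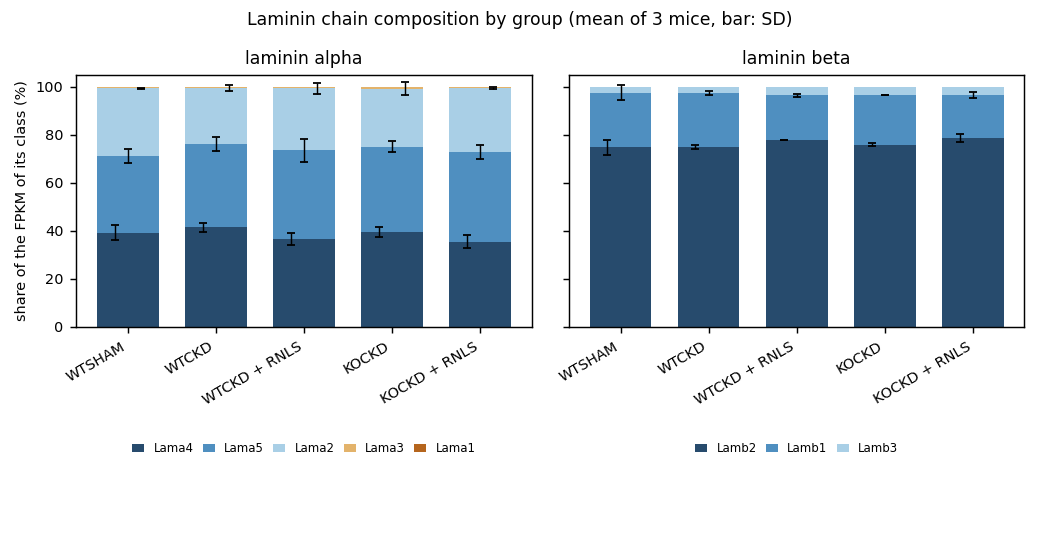
Stacked bars give, for laminin alpha and beta chains, each chain's share of the summed FPKM of its class (vertical axis, %) in the 5 groups, as the mean of 3 mice with SD bars. Lama4, Lama5 and Lama2 share the alpha class, while Lamb2 holds most of the beta class in all 5 groups.

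The 250 bases upstream of the start are shown for the 4 members called higher with the virus in the average over both genotypes, as the set with that call. In the separate comparisons Lamb3 was called in wild type, Lama2 and Lamb2 in knockout, and Itga3 in neither. RefSeq sequences of the build GRCm38.p6 were matched by symbol, and 23 of the 36 members had a window. They are read 5′ to 3′ on the gene's strand. Capitals mark GC boxes (GGGCGG or its complement CCGCCC), the only matches found in these 4 windows.
Itga3 (chr11:95076715-95076964, minus strand): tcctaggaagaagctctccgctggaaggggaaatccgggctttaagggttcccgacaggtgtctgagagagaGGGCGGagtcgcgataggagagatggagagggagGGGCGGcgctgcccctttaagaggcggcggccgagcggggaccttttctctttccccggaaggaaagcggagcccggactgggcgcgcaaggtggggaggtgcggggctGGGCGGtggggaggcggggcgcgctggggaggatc
Lama2 (chr10:27616943-27617192, minus strand): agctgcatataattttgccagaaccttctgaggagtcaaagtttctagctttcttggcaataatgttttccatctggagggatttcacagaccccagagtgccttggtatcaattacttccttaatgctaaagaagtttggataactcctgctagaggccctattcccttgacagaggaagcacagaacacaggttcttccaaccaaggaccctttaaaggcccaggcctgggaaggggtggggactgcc
Lamb2 (chr9:108479612-108479861, plus strand): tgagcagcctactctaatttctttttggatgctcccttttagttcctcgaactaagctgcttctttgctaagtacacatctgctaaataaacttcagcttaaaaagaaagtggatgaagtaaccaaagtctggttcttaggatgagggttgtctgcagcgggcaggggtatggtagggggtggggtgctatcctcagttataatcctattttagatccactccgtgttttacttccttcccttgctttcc
Lamb3 (chr1:193301744-193301993, plus strand): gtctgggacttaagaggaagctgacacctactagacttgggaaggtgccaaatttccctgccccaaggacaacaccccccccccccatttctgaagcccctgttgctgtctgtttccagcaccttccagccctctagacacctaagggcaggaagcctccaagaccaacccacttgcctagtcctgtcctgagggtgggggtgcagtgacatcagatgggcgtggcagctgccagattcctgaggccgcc
The Itga3 window held 3 GC boxes, which 32.7% of the 32851 windows hold at least once on either strand. None of the 4 held an E-box (CACGTG, in 6.02% of windows), a TATA box (TATAAA, in 12.4%) or a CCAAT box (CCAAT, in 33.8%). Lamb3 and Itga3 each have a further start with its own window, not shown. That of Itga3 held a GC box and a CCAAT box, and that of Lamb3 held no match. A match or its absence in these letters says nothing of a factor.

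In an edgeR test of any difference among the 5 groups, 10 of the 33 members passed an adjusted p of 0.05, against 22.2% of the 13021 genes tested. These were the laminin chains Lama2, Lamb3 and Lamc1, the integrin alpha chains Itga1, Itga6, Itga9 and Itgam, and the beta chains Itgb2, Itgb4 and Itgb6. Leaving out the 4 libraries rich in atrial RNA, which left WTCKD with a single mouse assumed to vary like the others, kept 1 of the 10 (Itgb2). Over the 15 fits that left out a library, Itga1, Itgb2, Itgb4, Lama2 and Lamb3 were called each time. Single libraries ended the call of Itga9 (WTSHAM 2 or 3), Itgam (WTSHAM 2) and Itgb6 (WTSHAM 3, KOCKD 2, KOCKD + RNLS 1 or 2). Lamc1 lost it without any of 9 libraries, all but WTSHAM 1, WTCKD 2, the WTCKD + RNLS hearts and KOCKD + RNLS 3, and Itga6 without any of 12, all but WTSHAM 1, WTSHAM 2 and WTCKD 1. Gene length offsets, described with the knockout hearts, ended the calls of Itga9, Lama2 and Lamc1.

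**Figure D3:**
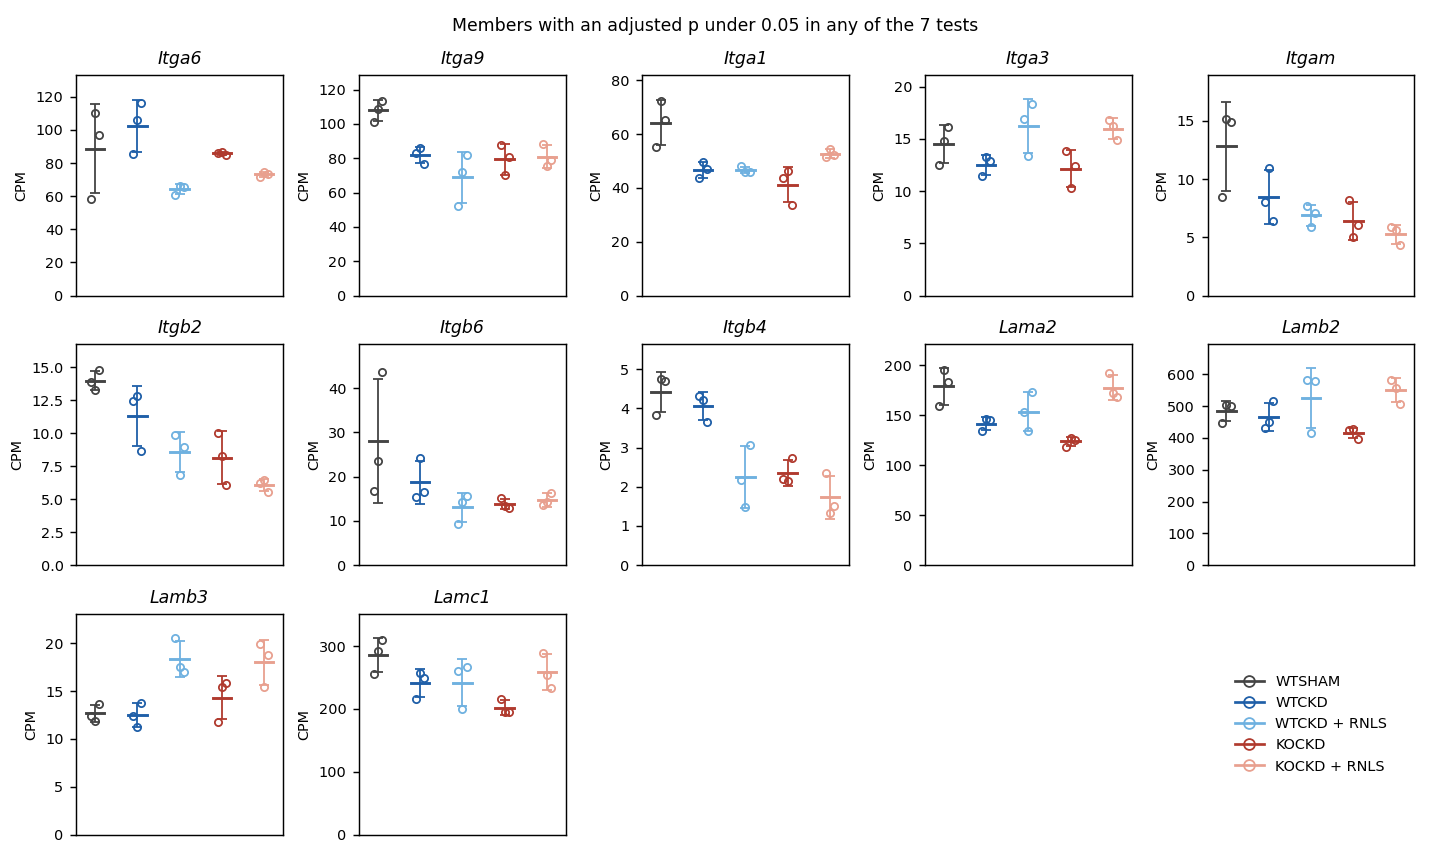
Each panel gives the CPM (vertical axis from 0) of a member that passed an adjusted p of 0.05 in any of the 7 tests, with a circle per heart, a line at the mean of 3 mice and SD bars, for the 5 groups in the order of the legend. Lama2 is lowest in KOCKD and higher in KOCKD + RNLS without overlap, while in Itgb6 the WTSHAM group is spread by a single heart at 43.7 CPM.

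In the hearts of wild-type mice, CKD came with lower levels of the collagen receptor chain Itga1, the only member that passed the test against sham. The 33 tested members leaned the same way, with 28 below 0 and a median log2 fold change of -0.21, beside -0.01 over all genes. Of the 33, 25 are at least 5000 bases long, the median of all genes of that length was -0.09 (0.07 under 2000 bases), and with the gene length offsets described below 24 members lay below 0 with a median of -0.13. Itga1 read 55.3, 72.1 and 65.3 CPM in WTSHAM, 43.5, 49.5 and 47.0 in WTCKD, 48.0, 46.0 and 46.0 in WTCKD + RNLS, 43.8, 46.1 and 33.8 in KOCKD and 51.4, 54.5 and 52.4 in KOCKD + RNLS. The WTCKD hearts all lay below the WTSHAM hearts. The fold change was -0.46 ± 0.11 on the log2 scale (± SE, adjusted p = 0.0402 in edgeR). In this comparison 1.7% of all genes were called lower and 0.599% higher, and no member was called higher. Itga1 (chr13:115748287-115892172 in mm9) lost the call with gene length offsets (log2 fold change -0.38, adjusted p = 0.0878), with only the 6 libraries compared, and without any of 11 single libraries, at -0.56 to -0.37. The 4 libraries that could each be left out with the call kept were WTSHAM 1, WTCKD + RNLS 2, KOCKD 2 and KOCKD 3.

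The study's rule is a log2 fold change over 0.32 in size and an unadjusted p under 0.05. Here and below these cutoffs were applied to the edgeR fit, not to the test the study used. By this rule 8 members were lower with CKD, where 7.63% of all genes were, and 0 were higher, where 3.66% were. Besides Itga1 these were Itga2b, Itga4, Itga9, Itgam, Itgb3, Itgb6 and Lama2. Lama2 stood at -0.34 ± 0.10 (adjusted p = 0.0846 in edgeR). It was called with DESeq2 and without WTSHAM 1 or WTCKD + RNLS 2. Itga9 read 101, 109 and 114 CPM in WTSHAM, 83.1, 86.1 and 76.8 in WTCKD, 52.2, 72.2 and 81.9 in WTCKD + RNLS, 87.7, 70.0 and 80.5 in KOCKD and 88.5, 75.3 and 79.0 in KOCKD + RNLS. Itga9, a chain of tenascin and VCAM-1 receptors, separated WTCKD from WTSHAM without overlap, at a log2 difference of -0.40 ± 0.13 (adjusted p = 0.120). Itgb3 read 6.5, 4.59 and 3.75 CPM in WTSHAM, 1.78, 3.49 and 2.55 in WTCKD, 3.0, 2.04 and 3.45 in WTCKD + RNLS, 3.32, 1.40 and 1.45 in KOCKD and 2.36, 2.81 and 2.06 in KOCKD + RNLS. Itgb3, which pairs with Itgav and with the platelet chain Itga2b, also did not overlap between WTSHAM and WTCKD (-0.92 ± 0.34, adjusted p = 0.168), at far lower counts. Itga2b stood at 7.92 CPM in WTSHAM 1 alone and at most 1.84 in the other 14 hearts, and the summed level of 7 platelet markers was 28.3 CPM in that library against 6.65 to 12.0 in the others. It is named here after its values were seen, and the part of platelet RNA in it was not tested.

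The chains of the leukocyte receptor Mac-1 had their highest group mean in WTSHAM and their lowest in KOCKD + RNLS. Itgam read 8.42, 15.2 and 14.9 CPM in WTSHAM, 8.03, 10.9 and 6.38 in WTCKD, 7.68, 5.85 and 7.12 in WTCKD + RNLS, 8.22, 5.03 and 6.04 in KOCKD and 5.85, 5.62 and 4.31 in KOCKD + RNLS. Itgam is the alpha chain of Mac-1, carried by monocytes, macrophages and neutrophils, and Itgb2 is the beta chain of all leukocyte integrins of its family. Itgb2 read 13.9, 13.3 and 14.8 CPM in WTSHAM, 12.4, 12.9 and 8.68 in WTCKD, 9.85, 6.87 and 8.96 in WTCKD + RNLS, 10.1, 8.29 and 6.04 in KOCKD and 6.26, 6.45 and 5.53 in KOCKD + RNLS. Both chains lay higher in every WTSHAM heart than in any KOCKD + RNLS heart. These groups were picked as highest and lowest on the same values, so this is no further support. Both chains passed the edgeR test over 5 groups (adjusted p = 0.0113 for Itgam and 0.00362 for Itgb2). In the 4 comparisons of single groups neither passed, and in WTCKD against WTSHAM the differences were -0.61 ± 0.24 and -0.31 ± 0.19. The summed level of 8 macrophage markers was also highest in WTSHAM and lowest in KOCKD + RNLS by its mean, with 392 to 457 CPM in WTSHAM, 254 to 349 in WTCKD, 225 to 254 in WTCKD + RNLS, 217 to 265 in KOCKD and 181 to 243 in KOCKD + RNLS, and none of the 8 was at 0 in any group. The sum of 6 neutrophil markers, at 2.84 to 17.2 CPM, had its highest mean in WTCKD (10.9 CPM, against 7.36 in WTSHAM) and its lowest in KOCKD + RNLS (5.51), with Ly6g at 0 in all groups but WTCKD + RNLS. The part of these cells in Itgam and Itgb2 was not tested.

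The virus in wild-type CKD hearts came with a lower level of the laminin receptor chain Itga6 and a higher level of the laminin chain Lamb3. Itga6 read 58.4, 110.2 and 97.3 CPM in WTSHAM, 85.3, 106 and 116 in WTCKD, 61, 66.3 and 65.7 in WTCKD + RNLS, 86.4, 86.6 and 84.6 in KOCKD and 71.7, 74.4 and 73.5 in KOCKD + RNLS. The 3 WTCKD + RNLS hearts lay close together and below every WTCKD heart, while WTSHAM spread from below to above them. The log2 difference was -0.67 ± 0.16 (adjusted p = 0.0282). Lamb3 read 12.4, 11.9 and 13.7 CPM in WTSHAM, 12.3, 11.3 and 13.8 in WTCKD, 20.5, 17.5 and 17.0 in WTCKD + RNLS, 11.7, 15.4 and 15.8 in KOCKD and 19.9, 15.4 and 18.7 in KOCKD + RNLS. WTCKD + RNLS lay above WTCKD without overlap, at 0.56 ± 0.14 (adjusted p = 0.0341). Both genes were single calls in their direction, where 2.28% of all genes were called lower and 2.19% higher. The Itga6 call was lost without WTCKD 2, WTCKD 3, WTCKD + RNLS 1 or WTCKD + RNLS 3 (log2 -0.79 to -0.58 over the 15 leave-outs), and that of Lamb3 without WTCKD 1, WTCKD 2, WTCKD + RNLS 1 or WTCKD + RNLS 3 (0.47 to 0.63), and both were lost without the 4 atrial-rich libraries (-0.85 and 0.42).

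By the study's rule 2 members were higher with the virus in wild-type hearts, Lamb3 and Itga3, where 6.31% of all genes were, and 3 were lower, Itga6, Itgb4 and Itga2, where 8.09% were. Itgb4 read 3.84, 4.74 and 4.71 CPM in WTSHAM, 4.31, 4.22 and 3.66 in WTCKD, 2.17, 1.49 and 3.06 in WTCKD + RNLS, 2.19, 2.14 and 2.74 in KOCKD and 2.36, 1.32 and 1.5 in KOCKD + RNLS. Itgb4, the partner of Itga6 in hemidesmosomes, endothelium and Schwann cells, was lower in WTCKD + RNLS than in WTCKD without overlap, at -0.84 ± 0.27 (adjusted p = 0.0914), and its exons share 537 bases with an antisense gene. Some markers of cells that carry these chains were called lower with the virus, at an adjusted p under 0.05. Of all genes, 2.28% were called lower in wild type and 7.04% in knockout. Of 8 endothelial markers, 4 were called lower in WTCKD + RNLS, with a summed level of 1000 to 1104 CPM against 1385 to 1555 in WTCKD and none at 0. Of 5 Schwann cell markers, 1 was called lower, with sums of 9.01 to 16.8 CPM against 22.5 to 33.6 and none at 0 in the group. In KOCKD + RNLS, 1 of the 8 endothelial markers was called lower (1167 to 1233 CPM against 1234 to 1437), and 3 of the 5 Schwann cell markers (11.6 to 17.4 against 15.9 to 19.5). Of 3 epithelial and mesothelial markers tested, 1 was called lower in WTCKD + RNLS and 0 in KOCKD + RNLS. The sums of the 8 listed were 4.82 to 6.31 CPM in WTCKD + RNLS against 10.8 to 25.3 in WTCKD, with Epcam, Msln and Upk1b at 0 in WTCKD + RNLS. Cardiomyocyte sums were higher in WTCKD + RNLS (108496 to 119097 CPM against 89139 to 103223 in WTCKD), with 0 of 8 markers called. The part of these cells in Itga6 and Itgb4 was not tested.

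In knockout CKD hearts the virus came with higher levels of Lama2, Lamb2, Lamc1 and Itga1, though gene length offsets ended all 4 calls. Thus 4 members were called higher, where 9.05% of all genes were, and 0 lower, where 7.04% were, and the median over the 33 members was 0.05 beside -0.01 over all genes, turning to -0.02 with the length offsets below. Lama2 read 159, 195 and 183 CPM in WTSHAM, 134, 146 and 145 in WTCKD, 153, 134 and 173 in WTCKD + RNLS, 119, 128 and 126 in KOCKD and 192, 172 and 169 in KOCKD + RNLS. Every KOCKD + RNLS heart lay above every KOCKD heart. The log2 difference was 0.52 ± 0.10 (adjusted p = 0.00385), and the call held in all 15 leave-outs and without the atrial-rich libraries (0.54, adjusted p = 0.0297) but not with gene length offsets. Lamb2 read 447, 503 and 501 CPM in WTSHAM, 430.4, 451 and 517 in WTCKD, 582, 417 and 580.1 in WTCKD + RNLS, 424, 427 and 397 in KOCKD and 583, 558 and 508 in KOCKD + RNLS. Lamb2 likewise did not overlap between KOCKD and KOCKD + RNLS (0.40 ± 0.11, adjusted p = 0.0255). Lamc1 read 256, 292 and 310.4 CPM in WTSHAM, 216, 257 and 249.5 in WTCKD, 261, 199 and 266 in WTCKD + RNLS, 215, 195 and 195 in KOCKD and 289, 253 and 233 in KOCKD + RNLS. The groups KOCKD and KOCKD + RNLS were apart here too (0.36 ± 0.12, adjusted p = 0.0471). Lama5, at a similar difference of 0.45 ± 0.18, did not pass (adjusted p = 0.0936), though it did with DESeq2 and with only the libraries compared. Itga1, given above, differed by 0.36 ± 0.11 (adjusted p = 0.0418). Without the atrial-rich libraries the calls of Lamb2 (0.38, adjusted p = 0.112), Lamc1 (0.34, adjusted p = 0.140) and Itga1 (0.24, adjusted p = 0.212) were lost. Of 8 cardiomyocyte markers 2 were called higher in this comparison, with sums of 101939 to 104465 CPM in KOCKD + RNLS against 91438 to 98436 in KOCKD, and of 8 pericyte and smooth muscle markers 1, with 1581 to 1780 against 1436 to 1483 and none at 0. The median log2 difference was -0.08 over the cardiomyocyte markers and -0.01 over the pericyte and smooth muscle markers, while both sums were higher. These medians were not adjusted for gene length. The part of these cells in the laminin chains and Itga1 was not tested.

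In mm9, Lama2 lies at chr10:26701094-27336748, Lamb2 at chr9:108382193-108392861 and Lamc1 at chr1:155066052-155179916. Under the study's rule 7 members were higher, where 12.2% of all genes were, namely the 4 above with Itga3, Lama5 and Lamb3, and 0 were lower, where 10.1% were.

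In this comparison the differences of all genes moved with gene length. Over all genes in KOCKD + RNLS against KOCKD, the median log2 difference was -0.26 for 2688 genes shorter than 2000 bases and 0.21 for 4215 genes of at least 5000 bases, while for the virus in wild-type hearts the corresponding medians were 0.01 and 0.04. They were 0.07 and -0.09 with CKD, and 0.13 and -0.10 in KOCKD against WTCKD. These 4 transcripts measured 11896, 5639, 7622 and 5984 bases. With offsets that remove a smooth trend on gene length in each library, the differences became 0.23 for Lama2 (adjusted p = 0.109), 0.28 for Lamb2 (0.101), 0.15 for Lamc1 (0.328) and 0.21 for Itga1 (0.311), and none of the 4 was called. The calls of Lamb2 were also lost without KOCKD 1, KOCKD 2, KOCKD 3, KOCKD + RNLS 1 or KOCKD + RNLS 2 (0.36 to 0.46 over the leave-outs). Those of Lamc1 were lost without these 5, WTSHAM 2 or WTCKD 3 (0.27 to 0.43). Itga1 was lost without any of 9 libraries (0.23 to 0.45), all but the WTSHAM hearts, WTCKD 2, WTCKD + RNLS 2 and KOCKD 2.

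**Figure D4:**
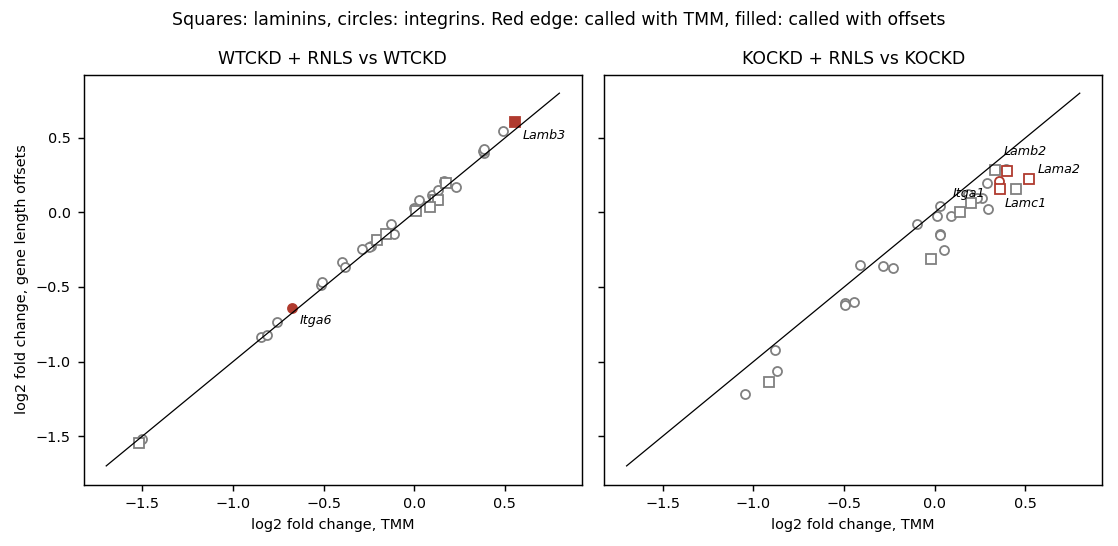
Each point is a tested member, with its log2 fold change under TMM scaling on the horizontal axis and under gene length offsets on the vertical axis, for the virus in wild-type (left) and knockout hearts (right). Squares are laminins, circles integrins, a red edge marks a call under TMM and a fill a call under offsets, and in the right panel Lama2 drops from 0.52 to 0.23, below the line of equal values.

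Averaged over both genotypes, 6 members were called for the virus, 4 higher, where 10.7% of all genes were, and 2 lower, where 7.33% were. The 4 higher were Lama2 (0.32 ± 0.07, adjusted p = 0.00557), Lamb2 (0.29 ± 0.08, adjusted p = 0.0205), Lamb3 (0.44 ± 0.10, adjusted p = 0.00661) and Itga3. Itga3 read 12.5, 14.8 and 16.1 CPM in WTSHAM, 11.4, 13.2 and 12.8 in WTCKD, 16.9, 13.4 and 18.4 in WTCKD + RNLS, 13.8, 10.2 and 12.4 in KOCKD and 16.8, 16.2 and 14.9 in KOCKD + RNLS. Itga3, a receptor chain for laminins with the Lama5 or Lama3 chain, did not overlap between virus and vector hearts in either genotype, at 0.38 ± 0.15 in wild type (adjusted p = 0.154) and 0.39 ± 0.15 in knockout (adjusted p = 0.0766), neither of which passed, and its averaged difference was 0.39 ± 0.10 (adjusted p = 0.0168). The 2 lower were Itga6 (-0.45 ± 0.12, adjusted p = 0.0141) and Itgb4 (-0.64 ± 0.20, adjusted p = 0.0355). Of the 6, Itga3, Itga6, Lama2 and Lamb3 were called in all 15 leave-outs. Itgb4 was lost without any of 8 libraries, WTCKD 1 and 2, WTCKD + RNLS 1 and 2, KOCKD 1 and 3 and KOCKD + RNLS 2 and 3 (-0.80 to -0.55), and Lamb2 without WTCKD 1, WTCKD + RNLS 1, WTCKD + RNLS 3 or KOCKD + RNLS 1 (0.25 to 0.35). Lama2 was lost with length offsets (0.16, adjusted p = 0.0742), and none of the 6 was called without the 4 atrial-rich libraries, where the values ran from -0.54 for Itga6 to 0.42 for Lamb3. The averaged result contains both separate comparisons and is no check on them.

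The effect of the virus was not shown to differ between genotypes for any member. edgeR called 0 of 13021 genes (0%), with 4 members at an unadjusted p under 0.05 (Itga1, Lama2, Lama4 and Lamc1), where 17.6% of all genes reached it, and DESeq2 called 363 genes with 0 members among them. The estimated difference, knockout minus wild type, was 0.40 ± 0.14 for Lama2 (adjusted p = 0.175) and 0.44 ± 0.23 for Itga6 (adjusted p = 0.331).

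**Figure D5:**
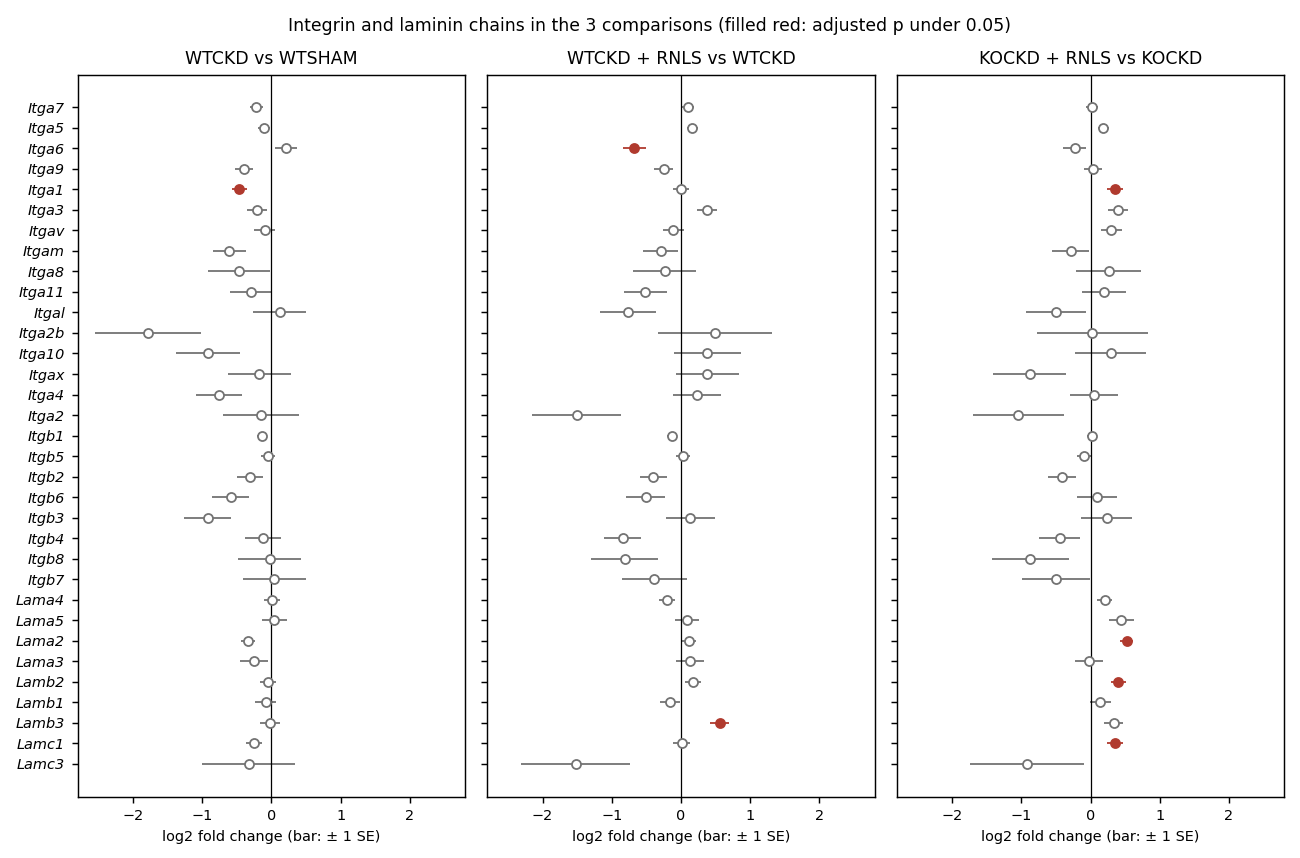
For the 33 tested members, ordered by class and level, the log2 fold change (horizontal axis, bars ± 1 SE) is given in CKD against sham and for the virus in wild-type and in knockout hearts. Filled red points passed an adjusted p of 0.05, which are Itga1 at the left, Itga6 and Lamb3 in the middle, and Itga1, Lama2, Lamb2 and Lamc1 at the right.

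Between KOCKD and WTCKD, edgeR called 0 of 13021 genes (0%), and no member. At an unadjusted p under 0.05, 4 members stood, where 10.1% of all genes did, namely Itgb2 (-0.48 ± 0.19), Itgb4 (-0.78 ± 0.27), Lama4 (-0.30 ± 0.11) and Lamc1 (-0.26 ± 0.12). DESeq2 called 9 genes with no member among them. Over the 33 members 28 lay below 0, with a median of -0.26, beside 50.8% of all genes and a median of 0.00. With gene length offsets 22 lay below 0, with a median of -0.13. The WTCKD and KOCKD hearts of Itgb4, Lama4 and Lamc1 did not overlap, while those of Itgb2 did. For Lamc1 the nearest hearts were WTCKD 1 at 215.8 and KOCKD 1 at 215.4 CPM. These members were picked by p on the same values and the share of all genes without overlap was not counted, so this is no further support.

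Itgb1, Itgb5, Itga7 and Itga5, integrin chains with high levels, passed none of the 7 edgeR tests. Itgb1 read 485, 504 and 466 CPM in WTSHAM, 433, 467 and 419 in WTCKD, 395, 395 and 417 in WTCKD + RNLS, 464, 441 and 421 in KOCKD and 456, 449 and 435 in KOCKD + RNLS. The group means ran from 402 to 485 CPM, and Itgb1 passed the test over 5 groups with DESeq2 (adjusted p = 0.0736 in edgeR). Itga7 read 239.6, 222 and 245 CPM in WTSHAM, 192, 196 and 220.1 in WTCKD, 209, 212 and 228 in WTCKD + RNLS, 190.4, 203 and 195 in KOCKD and 227, 182 and 191 in KOCKD + RNLS. WTCKD was below WTSHAM without overlap, at -0.22 ± 0.09 (adjusted p = 0.207). Itga5 read 69.5, 65.3 and 73.4 CPM in WTSHAM, 64.4, 63.2 and 66.0 in WTCKD, 78.9, 62.8 and 75.3 in WTCKD + RNLS, 59.5, 65.0 and 63 in KOCKD and 72.1, 69.8 and 71.4 in KOCKD + RNLS. For the virus Itga5 stood at 0.17 ± 0.08 in wild type and 0.19 ± 0.08 in knockout, and its average just missed the threshold (adjusted p = 0.0504), which it passed with DESeq2, RLE size factors, only the libraries compared, and without WTSHAM 3 or WTCKD + RNLS 2. Itgb5 read 126, 131 and 116 CPM in WTSHAM, 118, 129 and 112 in WTCKD, 141, 106 and 118 in WTCKD + RNLS, 142, 119 and 125 in KOCKD and 127, 118 and 117 in KOCKD + RNLS. Its values overlapped between the groups compared.

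Itgav, Itga8, Itga11 and Itgb6 had lower levels than these chains. Itgav read 25.3, 27.4 and 31.8 CPM in WTSHAM, 24.8, 28.1 and 26.3 in WTCKD, 28.0, 18.7 and 26.4 in WTCKD + RNLS, 23.5, 23.9 and 18.0 in KOCKD and 25.7, 30.2 and 24.4 in KOCKD + RNLS. Itgav, the vitronectin and latent TGF-beta receptor chain, passed no test, and 634 bases of its exons are shared with an antisense gene. Itga8 read 5.09, 23.5 and 7.65 CPM in WTSHAM, 5.83, 13 and 7.49 in WTCKD, 9.18, 5.20 and 7.81 in WTCKD + RNLS, 9.19, 6.52 and 4.75 in KOCKD and 9.83, 6.12 and 8.53 in KOCKD + RNLS. Itga8, a nephronectin receptor chain of mesenchymal cells, was highest in WTSHAM 2 and passed no test. Itga11 read 4.50, 7.07 and 6.11 CPM in WTSHAM, 5.24, 5.60 and 3.57 in WTCKD, 3.92, 2.51 and 3.60 in WTCKD + RNLS, 2.27, 4.85 and 2.82 in KOCKD and 4.79, 4.05 and 2.44 in KOCKD + RNLS. Itga11, the collagen receptor chain of fibroblasts, was at -0.51 ± 0.31 with the virus in wild type (adjusted p = 0.387), short of the threshold. Itgb6 read 16.8, 23.5 and 43.7 CPM in WTSHAM, 15.4, 24.1 and 16.5 in WTCKD, 9.35, 14.3 and 15.6 in WTCKD + RNLS, 15.1, 13.3 and 13 in KOCKD and 13.5, 14.2 and 16.4 in KOCKD + RNLS. Itgb6, an epithelial partner of Itgav that activates TGF-beta, passed the test over 5 groups (adjusted p = 0.0292) with WTSHAM 3 far above the other hearts.

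The remaining named laminin chains passed none of the 7 edgeR tests. Lama4 read 113, 127 and 141 CPM in WTSHAM, 125, 128 and 131 in WTCKD, 111, 93.9 and 128 in WTCKD + RNLS, 109.6, 90.3 and 112 in KOCKD and 118, 118 and 123 in KOCKD + RNLS. Lama5 read 189, 239 and 190.0 CPM in WTSHAM, 192, 195 and 249 in WTCKD, 276, 159.7 and 241 in WTCKD + RNLS, 177, 164 and 217 in KOCKD and 295, 231 and 234 in KOCKD + RNLS. The KOCKD group was lowest on average for both. Lamb1 read 117, 161 and 186 CPM in WTSHAM, 142, 138 and 158 in WTCKD, 144, 100.2 and 148 in WTCKD + RNLS, 120.2, 122 and 115 in KOCKD and 137, 123 and 133 in KOCKD + RNLS. Lamb1 was widest in WTSHAM and lowest on average in KOCKD. The other tested chains were 6 integrin alpha (Itga2, Itga2b, Itga4, Itga10, Itgal and Itgax), 2 integrin beta (Itgb7 and Itgb8) and 2 laminin chains (Lama3 and Lamc3), with mean FPKM from 0.114 for Itga2 to 0.546 for Itgal, and they passed none of the 7 edgeR tests. With DESeq2, Itgb8 passed over 5 groups and Itga2 for the averaged virus effect. Itga2 reached 10 counts in 8 of 15 libraries, Lamc3 in 7 and Itga2b in 10. Exons of Itga4 share 1124 bases with an antisense gene, so its reads may be split. Lamc3 was at 3.76 CPM in WTSHAM 2, the highest of its 15 values.

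Partner genes of integrins and laminins were read from 3 lists. Among 20 laminin linkers and receptors, all of them tested, 3 were called higher and 0 lower with the virus in knockout hearts, where 9.05% and 7.04% of all genes were, with a list median of 0.12 beside -0.01. Higher were Dmd (0.69 ± 0.13, adjusted p = 0.00389), the cytoskeletal end of the dystrophin complex, its homologue Utrn (0.65 ± 0.12, adjusted p = 0.00337) and Sgcd (0.35 ± 0.09, adjusted p = 0.0133), a sarcoglycan. With length offsets only Utrn kept the call (adjusted p = 0.0390), and Dmd, at 0.33, did not (adjusted p = 0.159). In wild-type hearts the basement membrane linker Nid2 was called lower with the virus (-0.65 ± 0.12, adjusted p = 0.00606). With CKD the heparan sulphate proteoglycan Agrn, a laminin binder, was called lower (-0.91 ± 0.19, adjusted p = 0.0198).

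Of 30 integrin adaptors listed, 29 were tested. With CKD, 1 was called, Sharpin, an integrin inhibitor, which was higher (0.46 ± 0.11, adjusted p = 0.0439), where 0.599% of all genes were, and with the virus in wild-type hearts 1 was, Pdlim7, also higher (0.51 ± 0.14, adjusted p = 0.0453), where 2.19% were. In knockout hearts 2 were called higher and 2 lower, where 9.05% and 7.04% of all genes were. These were Tns1 (0.43 ± 0.09, adjusted p = 0.00846) and Tln2 (0.37 ± 0.09, adjusted p = 0.00934), the actin linkers tensin and talin, as the higher and Csrp1 and Itgb1bp1 as the lower (-0.56 ± 0.14, adjusted p = 0.0131 and -0.55 ± 0.12, adjusted p = 0.00934). None of these 4 kept its call with length offsets.

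Of 26 other integrin ligands listed, 18 were tested. With the virus in wild-type hearts 3 were called lower, where 2.28% of all genes were, and 0 higher, namely Postn (-1.27 ± 0.27, adjusted p = 0.0142), a matricellular ligand of Itgav, Icam1 (-0.73 ± 0.17, adjusted p = 0.0196), the counter-receptor of Itgb2 integrins, and Tgfb1 (-0.58 ± 0.11, adjusted p = 0.00753), whose latent form binds Itgav. In knockout hearts 3 were called lower, where 7.04% of all genes were, and 1 higher. There Tnc (-1.66 ± 0.39, adjusted p = 0.0124), a ligand of Itga9, was called lower with Postn (-0.85 ± 0.27, adjusted p = 0.0437) and Icam2 (-0.55 ± 0.15, adjusted p = 0.0222), and Ltbp1 higher (0.48 ± 0.12, adjusted p = 0.0144), with Tnc alone keeping its call under length offsets. Tnc lay near the floor, at 1.40 to 1.75 CPM in KOCKD and 0.24 to 0.66 in KOCKD + RNLS, so its change rests on few reads. With CKD, Tgfb1 was called higher (0.53 ± 0.11, adjusted p = 0.0145). The list medians were -0.53 in wild type and -0.31 in knockout, beside 0.01 and -0.01 over all genes. Postn also belongs to the activated fibroblast markers, of which 2 of 5 tested were called lower in each genotype, with summed levels of 251 to 261 CPM in WTCKD + RNLS against 293 to 376 in WTCKD, and 244 to 323 in KOCKD + RNLS against 252 to 459 in KOCKD, and none at 0.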

How the data were processed

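Heart RNA of 15 mice in 5 groups was measured by RNA-seq after TruSeq stranded mRNA preparation. According to the supplement the authors trimmed reads with Trimmomatic, mapped them with hisat2 to mm9 and took the counts per gene from htseq-count, whereas the submitters' processing notes name the build GRCm39. Tool versions, annotation and strand option are not given in the sources used here. The authors deposited unnormalized counts, in whole numbers, and FPKM from cufflinks, which equal the count divided by a gene length and the library total. The mm9 positions printed are those of GENCODE M1.

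Groups came from the sample labels, and all 15 columns were used. Counts were tested with R 4.3.3 and edgeR 4.0.16 (quasi-likelihood, TMM, default filter of 10 counts and a total of 15, all 15 libraries in 1 fit with group alone, 13021 genes, Benjamini-Hochberg adjustment over them). DESeq2 1.42.0 and Python 3.11.15 were also used. Alternatives were other scaling and filters, DESeq2, a replicate block, gene length offsets (a spline with 6 degrees of freedom), only the libraries compared, the study's rule, each library left out and, added later, the atrial-rich ones. On simulated data for WTCKD + RNLS against WTCKD with 200 of 13021 genes changed, edgeR recovered 170 with 8 false calls. The simulation gave all genes the same dispersion, with no gene length trend and no atrial-rich libraries. Its changes were larger than those of the members called in single comparisons, so these rates do not carry over to the calls reported.

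The members, the lists of partner genes and markers, and the tests were chosen with earlier results of these data known. Members were given in full where they passed an adjusted p of 0.05 in any of 7 tests, were among the top 2 by FPKM of their class or have a known role in heart, and partner genes only where they passed. A member and a few listed genes were in the fits but are not reported here, and no count of members or list median includes them. Each group holds 3 mice, and SE and p rest on the spread between mice within groups, pooled over the 5 groups and moderated across genes.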

Additional observations from a re-analysis of the deposited data

How the results depend on the processing

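For the 23 calls of members over 7 tests, 405 of 519 refits under other settings kept the call and 114 lost it. No refit of a comparison with a direction reversed it. The 10 calls over 5 groups have no direction, so their refits could not reverse. RLE size factors, no filter on low counts, a filter of 10 counts in 3 libraries and DESeq2 kept all 23. Of 33 members, CKD against sham had 1 called, 2 with DESeq2, 0 with gene length offsets, 0 with only the libraries compared and 8 by the study's rule (0 to 2 when leaving out each library). The virus in wild-type hearts had 2, 1 with only the libraries compared and 5 by the study's rule (0 to 2). In knockout hearts 4 became 0 with gene length offsets and 7 by the study's rule (1 to 6). KOCKD against WTCKD went from 0 to 2 and the difference between genotypes from 0 to 4 by the study's rule, and both stayed at 0 in the leave-outs. The averaged effect went from 6 to between 4 (without WTCKD 1) and 9 in the leave-outs and 9 with DESeq2, and the test over 5 groups from 10 to between 6 (without WTSHAM 3) and 13 in the leave-outs and 14 with DESeq2. Leaving out the 4 atrial-rich libraries, a choice made after seeing the data that leaves WTCKD with 1 mouse, gave 0 members for CKD, 0 for the virus in wild type, 1 in knockout, 0 averaged and 1 over 5 groups. This setting also has fewer samples, and the cause was not tested.

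With the replicate block, the count in knockout hearts was 3 and that over 5 groups 9, Lamc1 being lost in both, and the others kept their calls. Over the 30 pairs of libraries with the same number, deviations from group means correlated at -0.36 to 0.33, with 5 over 0.1, so the numbers were not taken to pair mice.

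Over all genes, 299 were called with CKD (78 higher, 221 lower), 584 with DESeq2 (211 and 373), 308 with length offsets (119 and 189), 99 with only the libraries compared and 72 without the atrial-rich ones, and 136 (without WTCKD 1) to 581 (without WTCKD + RNLS 2) in the leave-outs. The virus in wild-type hearts gave 582 (285 and 297), 752 with length offsets (446 and 306), 894 with DESeq2, 380 with only the libraries compared and 47 without the atrial-rich ones, and 209 (without WTCKD 2) to 795 in the leave-outs. In knockout hearts 2095 became 3115 with only the libraries compared, 2401 with DESeq2, 604 with length offsets and 1007 without the atrial-rich libraries, and 862 (without KOCKD 2) to 2771 in the leave-outs. KOCKD against WTCKD went from 0 to at most 9, with DESeq2. The averaged effect went from 2342 to 592 and the test over 5 groups from 2887 to 789 without the atrial-rich libraries. Low counts limit Itga2, Itga2b, Itga10, Itgax, Itgb7 and Lamc3, with a median of 7 to 15 reads over the 15 libraries.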
